A study of Homo sapiens with 4 samples.

Results

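The mRNAs of core spliceosome proteins were examined in KYSE180 cells, an established esophageal squamous cell carcinoma (ESCC) line, by comparing transcripts recovered with the RNA-binding protein TIA1 with total RNA. The 58 genes were listed in classes by the complex or the role of their proteins. Each gene was put in a single class, with PRPF38A and PRPF38B under the tri-snRNP and SNRNP200 under the helicases. A class is therefore not the exact make-up of a particle. The list held the Sm ring (7 genes), U1 snRNP (4), U2 snRNP with U2AF (4), SF3A and SF3B (9), the U4/U6.U5 tri-snRNP (12), the LSm ring (7), the splicing helicases (7), the PRP19 complex (5) and the second-step factors (3). All non-control probes whose transcript identifier mapped to one of these symbols were taken, which gave 81 probes. Of the 58 genes, 57 passed the detection filter with 75 probes, among 13039 genes in all. The exception was DDX46, the helicase that acts when U2 snRNP settles on the branch point, whose single probe was well above background on TIA1 RIP replicate 1 and total RNA replicate 1 only.

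The TIA1 RIP group comprised 2 arrays hybridized with RNA that an anti-TIA1 antibody had brought down from cytoplasmic lysates, and the total RNA group comprised 2 arrays of RNA labelled as input. The sources do not say whether this RNA came from the cytoplasmic lysate or from whole cells, so a ratio of TIA1 RIP to total RNA can hold the cytoplasmic share of an mRNA as well as its recovery with TIA1, and these cannot be told apart. Neither group carried a treatment or a genetic change in the labels, and for each array 0.2 µg RNA was labelled with a single dye. Nothing in the labels says that replicates came from separate cultures or immunoprecipitations, so the p-values measure only the spread between these samples, which may be technical, and 2 arrays per group limit the precision. Immunoprecipitates with control IgG were not analysed here. In bulk RNA, fewer transcript copies per cell and fewer cells expressing a gene cannot be told apart.

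The spliceosome removes introns through small nuclear ribonucleoproteins (snRNPs), each an snRNA held in a ring of Sm or LSm proteins and joined by particle-specific proteins. U1 recognizes the 5′ splice site, U2 with SF3A, SF3B and U2AF recognizes the branch point and the 3′ splice site, and the U4/U6.U5 tri-snRNP brings in the future catalytic core, which helicases and the PRP19 complex then remodel. TIA1 prefers U-rich RNA. In the nucleus it binds U-rich stretches next to weak 5′ splice sites and helps to bring in U1 snRNP through the C protein of that particle, and in the cytoplasm it binds U-rich untranslated regions, dampens translation and gathers in stress granules. The mRNAs followed here encode the machinery with which nuclear TIA1 works.

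Because TIA1 prefers U-rich RNA, the 30-base window richest in U was read from the 3′ untranslated region (UTR) of 10 of these mRNAs, on the transcript strand of GRCh37 with GENCODE coordinates. The first 5 are from mRNAs whose TIA1 RIP arrays both lay above both total RNA arrays, and the last 5 from mRNAs for which both lay below. These 10 were picked after their array values had been seen. Runs of at least 5 U are in capitals.
SNRPF, chr12:96259854-96259883, plus strand: uuuugugggggaUUUUUUUUauauauauuu
LSM6, chr4:147110843-147110872, plus strand: uauaUUUUUUUaugaaUUUUUUcuaauuuu
SNRPD3, chr22:24968093-24968122, plus strand: UUUUUUguucuguuuuguuuuguuuucuuu
SF3B4, chr1:149895248-149895277, minus strand: uuucUUUUUUauguugguccugaguauuuu
SNRPB2, chr20:16722621-16722650, plus strand: uuaUUUUUcugguguuccuguuuuaguauu
SF3B3, chr16:70609085-70609114, plus strand: UUUUUcUUUUUUUUcUUUUUUUUUUUUUUU
SF3B2, chr11:65836310-65836339, plus strand: uuucauguucuuauuuuagaccuguuuugu
PRPF8, chr17:1553983-1554012, minus strand: cucuuucccucugucugugcuuguguuguu
PRPF6, chr20:62664412-62664441, plus strand: uguguccuccuucauuaaaagUUUUUaugu
SNRNP200, chr2:96940506-96940535, minus strand: auuuucaggcauguuccugguaguucuuuu

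The windows held 19 to 24 U in the first 5 mRNAs. In the last 5 they held 28 U in SF3B3 and 15 to 18 U in the others. Among genes not shown whose TIA1 RIP arrays both lay above, SF3B6 and SNRNP27 held 18 U and LSM8 held 23. Among those not shown whose arrays both lay below, windows held from 13 U in CTNNBL1 to 24 U in DHX8. The U counts of the upper and lower genes thus overlapped. SF3B3 had the longest U-run shown. A window describes the annotated sequence and is not evidence of a binding site.

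Total RNA replicate 2 stood apart from the other arrays. The 75th percentile of its signal was 69.9, compared with 714 on total RNA replicate 1 and with 1514 and 1271 on the TIA1 RIP arrays, and 32.2% of its spots were well above background compared with 45.8% to 48.4%. Over all genes the correlation was r = 0.932 between the TIA1 RIP arrays and r = 0.733 between the total RNA arrays. All arrays lay on 1 slide in 1 scan, and no spot was saturated. The 8 squamous epithelial markers examined were detected on all 4 arrays. Of 8 markers of other cell types, 5 were detected on none, the leukocyte marker PTPRC and the muscle marker DES on all 4, and COL1A1 on 3. Signals below are log2 values relative to the 75th percentile of the array, and a log2 ratio is the mean of the TIA1 RIP arrays minus that of total RNA. Levels of different genes come from different probes and are not compared.

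The median log2 ratio of the core spliceosome mRNAs was close to that of all genes, and single genes lay far to either side of it. The median was 0.036 above that of all genes, with a range from -2.33 for SF3B3 to 2.28 for PRPF38A. The first value includes a probe not well above background on TIA1 RIP replicate 2, and SF3B3 was at -1.20 with its brightest probe alone. The second includes a total RNA array on which PRPF38A was not well above background, and PRPF38A was at -0.084 against the other. Relative to all genes, 5 of the 7 Sm genes lay above and 2 below, 4 of the 7 LSm genes above and 3 below, and 2 of the 6 helicases above and 4 below. The limma fit over all 13039 genes, with Benjamini-Hochberg adjustment, called 0 of the 57 genes higher and 0 lower, where the background was 0% in each direction, and the adjusted p-values ran from 0.776 to 1.00. At an unadjusted p-value under 0.05 there were 0 higher genes, against 1.1% of all genes, and 4 lower genes (7.02%), against 4.02% of all genes. These 4 were SF3B3, PRPF6, PRPF8 and SF3B2. When total RNA replicate 1 was left out, and the lone total RNA array was assumed to vary like the TIA1 RIP arrays, limma called 13 of the genes higher and the same 4 lower, against 14.2% and 15.7% of all genes.

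**Figure D1:**
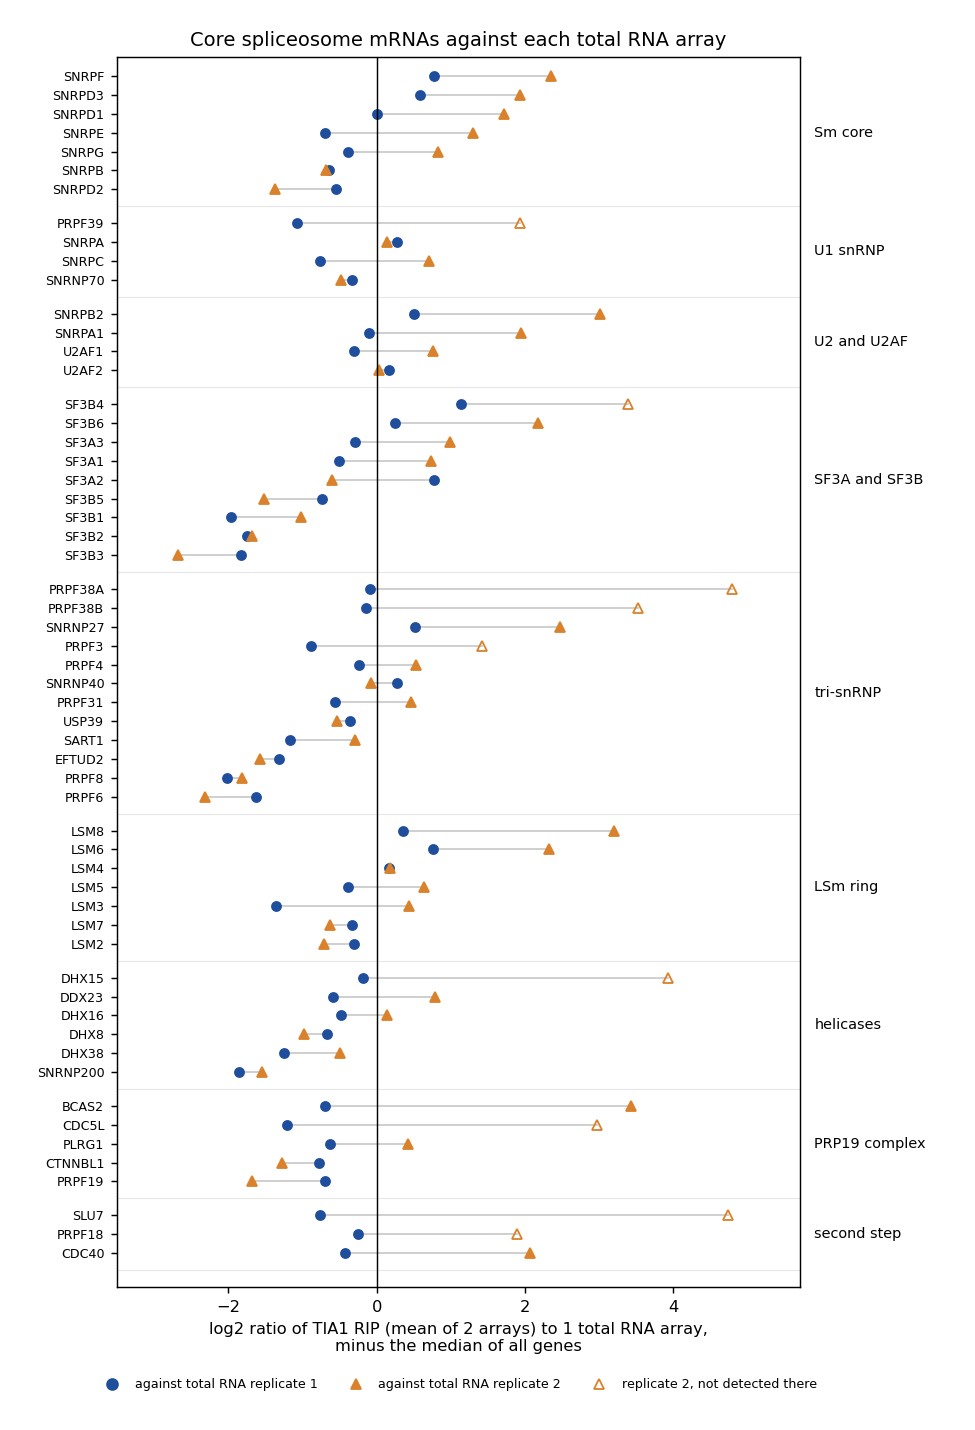
Log2 ratio of the mean of the 2 TIA1 RIP arrays to total RNA replicate 1 (circles) and to total RNA replicate 2 (triangles) for the 57 genes, each minus the median of all genes. Open triangles mark the 9 genes not detected on total RNA replicate 2. Grey lines join the values of a gene, and 26 of the 57 genes lie on opposite sides of 0 in the 2 comparisons.

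The choice of total RNA array changed the side of many of these genes, at a share close to that of all genes. Relative to all genes, the median of the 57 was -0.42 against total RNA replicate 1 and 0.52 against replicate 2. There were 14 genes above and 43 below the all-gene median against replicate 1, and 36 above and 21 below against replicate 2. In 26 genes (45.6%) the side changed between the arrays, compared with 44% of all genes. These comparisons share the TIA1 RIP arrays. The genes of the PRP19 complex and the second-step factors, and the 6 detected helicases, were all below the all-gene median against replicate 1, whereas 3 of each group were above it against replicate 2.

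Genes were also counted by whether the 2 groups of arrays overlapped. Both TIA1 RIP arrays lay above both total RNA arrays for 8 genes (14%), against 19.4% of all genes. These were SNRPD3 and SNRPF of the Sm ring, SNRPB2 of U2 snRNP, SF3B4 and SF3B6 of SF3B, SNRNP27 of the tri-snRNP, and LSM6 and LSM8 of the LSm ring. Both lay below for 18 genes (31.6%), against 21.7% of all genes, and these came from every class but U2 with U2AF and the second step. They included SF3B1, SF3B2, SF3B3 and SF3B5, the U5 proteins PRPF6, PRPF8 and EFTUD2, and the helicases SNRNP200, DHX8 and DHX38. Scaling to the E1A spike-in controls, which moved the median log2 ratio of all genes from -0.036 to 3.83, put 53 genes above and 0 below (94.5% and 0.56% of all genes). The directions above therefore depend on the scaling and are relative to the bulk of genes. Absolute amount was not tested. Quantile normalization gave 14 above and 14 below, against 25.6% and 17.6% of all genes.

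Enrichment was also expressed relative to GAPDH, an abundant mRNA of a glycolytic enzyme that served as the non-target reference. Before scaling, GAPDH gave a signal of 135771 and 131367 on the TIA1 RIP arrays and of 145089 and 55429 on the total RNA arrays. On the group means, 42 of the 57 genes (73.7%) were over 2.5-fold above GAPDH, against 72.4% of all genes, and 0 were over 2.5-fold below it, against 1.62%. Without total RNA replicate 2, the first count was 11, against 42.3% of all genes. Against total RNA replicate 1, the fold was passed by 18 genes with TIA1 RIP replicate 1 (background 46%), by 7 with replicate 2 (background 40%) and by 7 with both (background 31.1%). Against total RNA replicate 2, it was passed by 53 genes (background 76.7%), by 48 (background 77.7%) and by 48 with both (background 71.8%). In all 4 pairs of arrays 7 genes (12.3%) passed it, against 26.2% of all genes, and these were SNRPD3, SNRPF, SNRPA, SNRPB2, SF3A2, SF3B4 and LSM6. In no pair did SF3B2, SF3B3, PRPF6 and PRPF8 pass it (7.02%, against 12.8% of all genes). In a limma fit of values relative to GAPDH, the adjusted p-values of the 57 genes ran from 0.221 to 0.986.

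**Figure D2:**
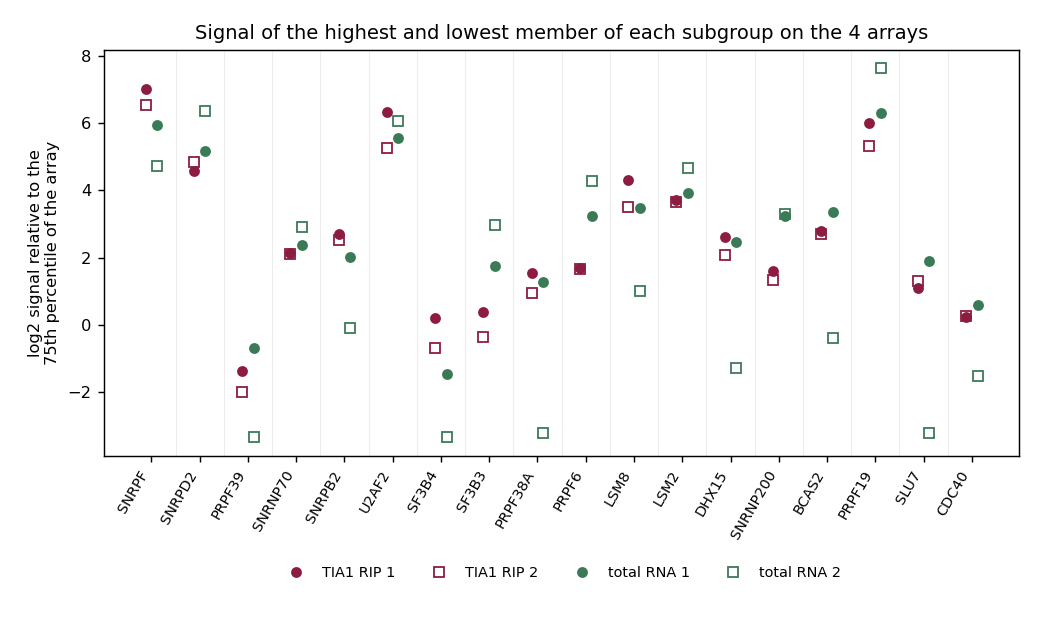
Signal of the gene with the highest and the gene with the lowest log2 ratio in each of the 9 classes on the 2 TIA1 RIP arrays (red) and the 2 total RNA arrays (green), in log2 units relative to the 75th percentile of the array. Filled circles are replicate 1 and open squares replicate 2. The total RNA replicates lie farthest apart for PRPF38A, DHX15, BCAS2 and SLU7, whose TIA1 RIP replicates lie closer together. For U2AF2 and SNRNP200 the TIA1 RIP replicates lie farther apart than the total RNA replicates. Heights are compared within a gene only.

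The Sm proteins form the ring around the snRNAs of U1, U2, U4 and U5. SNRPF (SmF, chr12:96252730-96297606) gave a log2 signal of 7.02 and 6.56 on the TIA1 RIP arrays and of 5.95 and 4.73 on the total RNA arrays. Both TIA1 RIP values were above both total RNA values, and the log2 ratio was 1.45 ± 0.84 (SE). SNRPD2 (SmD2, chr19:46190718-46195827) was at the other end, with 4.57 and 4.84 in TIA1 RIP and 5.18 and 6.37 in total RNA, a log2 ratio of -1.07 ± 0.83 (SE). The 2 groups of arrays did not overlap for SNRPD2 either. The other log2 ratios were 1.15 for SNRPD3, 0.75 for SNRPD1, 0.19 for SNRPE, 0.11 for SNRPG and -0.77 for SNRPB. The mRNAs of 1 ring thus lay on both sides. Relative to all genes, the median of the 7 was 0.23, with -0.39 against total RNA replicate 1 and 1.29 against replicate 2, and removal of the trend with GC content turned it to -0.22. SNRPB and SNRPN encode near-identical proteins, and several Sm genes have processed pseudogenes. The part of such copies in these signals was not tested.

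Of the U1 proteins, SNRNP70 (U1-70K, chr19:49588676-49611862), which binds the first stem loop of U1 snRNA, had the lowest log2 ratio, -0.51 ± 0.78 (SE). It gave 2.14 and 2.12 in TIA1 RIP and 2.38 and 2.90 in total RNA, without overlap. Relative to all genes SNRNP70 was at -0.48, at -0.015 with the normexp background correction and at 0.43 with the GC trend removed. PRPF39 (chr14:45553310-45585485), a U1 accessory factor, had the highest log2 ratio, 0.32 ± 1.05 (SE), with -1.38 and -2.02 in TIA1 RIP and -0.70 and -3.35 in total RNA. Its total RNA values enclosed both TIA1 RIP values, and it was not well above background on total RNA replicate 2. SNRPC, which encodes the U1 C protein contacted by TIA1, had a log2 ratio of -0.14, and SNRPA, which encodes the U1 A protein, one of 0.091. Relative to all genes, the median of the 4 was 0.012, with -0.54 against total RNA replicate 1 and 0.42 against replicate 2.

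U2 snRNP and U2AF define the branch point and the 3′ splice site. SNRPB2 (the U2 B″ protein, chr20:16710606-16723209) gave 2.70 and 2.51 in TIA1 RIP and 2.02 and -0.12 in total RNA, a log2 ratio of 1.65 ± 0.96 (SE) without overlap. Its partner SNRPA1 (the U2 A′ protein) had a log2 ratio of 0.81. U2AF2 (U2AF65, chr19:56165512-56186082), which binds the polypyrimidine tract, gave 6.34 and 5.26 in TIA1 RIP and 5.57 and 6.06 in total RNA. The groups overlapped for U2AF2, at a log2 ratio of -0.01 ± 0.83 (SE), and U2AF1 was at 0.12. The median of the 4 genes relative to all genes was 0.50, with 0.034 against total RNA replicate 1 and 1.35 against replicate 2.

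The SF3A and SF3B subunits, which anchor U2 snRNP at the branch point, held genes far on either side. SF3B4 (chr1:149895209-149899695) gave 0.18 and -0.70 in TIA1 RIP and -1.47 and -3.36 in total RNA, where the last value was not well above background. Its log2 ratio was 2.15 ± 0.94 (SE), and relative to all genes it was 1.14 against total RNA replicate 1 and 3.39 against replicate 2. SF3B3 (chr16:70557694-70611573), a large scaffold of SF3B, gave 0.38 and -0.38 in TIA1 RIP and 1.76 and 2.97 in total RNA, a log2 ratio of -2.36 ± 0.86 (SE). The arrays of both genes did not overlap, in opposite directions. The 2 probes of SF3B3 gave log2 ratios of -3.48 and -1.25, and the first was not well above background on TIA1 RIP replicate 2. SF3B1, the HEAT-repeat protein that clamps the branch point and is mutated in several cancers, was at -1.60, SF3B2 at -1.82 and the small subunit SF3B5 at -1.24, whereas SF3B6, which contacts the branch point region, was at 1.11. The 3 SF3A genes had log2 ratios from -0.020 for SF3A2 to 0.23 for SF3A3. For SF3A2 this was a mean of opposite values, 0.85 against total RNA replicate 1 and -0.89 against replicate 2. Relative to all genes, the 9 genes had a median of 0.015, with -0.51 and -0.60 against total RNA replicates 1 and 2.

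In the tri-snRNP, the large U5 proteins were on the lower side. PRPF6 (chr20:62612485-62664453), which bridges U5 and U4/U6, gave 1.70 and 1.67 in TIA1 RIP and 3.23 and 4.28 in total RNA, a log2 ratio of -2.08 ± 0.82 (SE). PRPF8 (chr17:1553923-1588161), the scaffold that cradles the catalytic RNA, gave 2.13 and 2.05 in TIA1 RIP and 4.03 and 4.20 in total RNA, a log2 ratio of -2.02 ± 0.77 (SE). PRPF8 was given in full after its values had been seen. The total RNA arrays differed by 0.17 log2 units for PRPF8, so that its ratio relative to all genes was near the same against replicate 1 (-2.01) and replicate 2 (-1.82). EFTUD2, the U5 GTPase, had a log2 ratio of -1.55. PRPF38A (chr1:52870274-52886508), a factor needed for activation of the spliceosome, gave 1.55 and 0.95 in TIA1 RIP and 1.26 and -3.25 in total RNA, a log2 ratio of 2.24 ± 1.43 (SE), and was not well above background on total RNA replicate 2. Relative to all genes, PRPF38A was at -0.084 against total RNA replicate 1 and at 4.79 against replicate 2. PRPF38B was at 1.58 and SNRNP27 at 1.39, and the U4/U6 proteins PRPF3, PRPF4 and PRPF31 were at 0.16, 0.032 and -0.16. The median of the 12 genes relative to all genes was -0.049, with -0.46 against total RNA replicate 1 and 0.19 against replicate 2.

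The LSm proteins form the ring at the 3′ end of U6 snRNA, and all but LSM8 also take part in the cytoplasmic ring that promotes mRNA decapping. LSM8 (chr7:117824198-117844089), the subunit that marks the nuclear ring, gave 4.30 and 3.50 in TIA1 RIP and 3.47 and 0.99 in total RNA, a log2 ratio of 1.67 ± 1.03 (SE). Its lower TIA1 RIP value and higher total RNA value differed by only a small margin. LSM6 was at 1.43, LSM4 at 0.064, LSM5 at 0.015, LSM3 at -0.57 and LSM7 at -0.59. LSM2 (chr6:31765173-31774743) gave 3.71 and 3.66 in TIA1 RIP and 3.92 and 4.68 in total RNA, a log2 ratio of -0.61 ± 0.79 (SE) without overlap. The 2 probes of LSM2 gave log2 ratios of -0.15 and -1.08, and the groups overlapped for the first. Relative to all genes LSM2 was at -0.58, and at -0.046 with the normexp background correction. As a class, the 7 genes had a median of 0.051 relative to all genes, with -0.30 against total RNA replicate 1 and 0.43 against replicate 2. It was 0.56 with the normexp background correction.

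The helicases use ATP to drive each rearrangement of the spliceosome. SNRNP200 (Brr2, chr2:96940076-96987009), which unwinds U4 from U6, gave 1.59 and 1.32 in TIA1 RIP and 3.24 and 3.29 in total RNA. The groups did not overlap, and the log2 ratio was -1.81 ± 0.77 (SE). DHX15 (chr4:24519064-24586177), which takes spliceosomes apart after splicing, had the highest value, 1.76 ± 1.26 (SE), with 2.60 and 2.09 in TIA1 RIP and 2.46 and -1.29 in total RNA. It was not well above background on total RNA replicate 2, and against total RNA replicate 1 it was at -0.18 relative to all genes. DHX38 and DHX8, which act at the second step and at release of the mRNA, were at -0.98 and -0.93. DHX16 was at -0.28 and DDX23 at -0.01. Together, the 6 genes had a median of -0.57 relative to all genes, with -0.63 against total RNA replicate 1 and -0.17 against replicate 2, and -0.088 once the GC trend had been removed.

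In the PRP19 complex, which stabilizes the catalytic form of the spliceosome, the ubiquitin ligase PRPF19 (chr11:60658019-60674057) gave 6.02 and 5.32 in TIA1 RIP and 6.30 and 7.64 in total RNA. Its log2 ratio was -1.30 ± 0.87 (SE) without overlap. BCAS2 (chr1:115110178-115124250) was the highest, at 1.25 ± 1.26 (SE), with 2.79 and 2.69 in TIA1 RIP and 3.37 and -0.39 in total RNA. Its total RNA values enclosed the TIA1 RIP values. CDC5L was at 0.77, PLRG1 at -0.22 and CTNNBL1 at -1.13, and the median of the 5 genes relative to all genes was -0.18, with -0.70 against total RNA replicate 1 and 0.42 against replicate 2. It was -0.80 with the GC trend removed and 0.052 with the normexp background correction.

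The second-step factors place the 3′ splice site for exon ligation. SLU7 (chr5:159828648-159848718) gave 1.10 and 1.29 in TIA1 RIP and 1.89 and -3.24 in total RNA, a log2 ratio of 1.87 ± 1.56 (SE). SLU7 was not well above background on total RNA replicate 2. CDC40 (chr6:110501344-110575478) gave 0.23 and 0.24 in TIA1 RIP and 0.59 and -1.54 in total RNA, a log2 ratio of 0.71 ± 0.95 (SE). In both genes the total RNA values enclosed those of TIA1 RIP. PRPF18 was at 0.72, and its 2 probes disagreed, at -0.28 and 1.72, as did those of CDC40, at -0.13 and 1.56. Both PRPF18 probes and the higher CDC40 probe were not well above background on total RNA replicate 2. The median of the 3 genes relative to all genes was 0.75, with -0.42 against total RNA replicate 1 and 2.07 against replicate 2, and it was -0.29 once the GC trend had been removed.

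The difference between the total RNA arrays followed the GC content of the transcripts. Total RNA replicate 2 minus replicate 1 had a median of -0.69 over the 57 genes, compared with 0.38 over all genes, and an SD of 1.56 across the genes, compared with 0.35 for the same difference between the TIA1 RIP arrays. It was negative in 36 of the 57 genes, against 43% of all genes, and 10 genes (17.5%) were over 4-fold lower on replicate 2, against 14.8% of all genes. The 9 genes not detected on replicate 2 were PRPF39, SF3B4, PRPF3, PRPF38A, PRPF38B, DHX15, CDC5L, PRPF18 and SLU7, with a median GC content of 40.4%, and 48 of the 57 were detected on all 4 arrays. Across the 57 genes the rank correlation of GC content with the difference was 0.71, and 0.71 across the 11636 genes with an annotated coding transcript. These points share the same arrays and are not replicates. Among the 19 genes under 42% GC, the difference had a median of -1.78, and the log2 ratio relative to all genes a median of 0.80. Of all genes under 42% GC, the same medians were -1.82 and 1.10. Among the 23 genes at 52% GC and over, they were 0.40 and -0.58, against 1.53 and -0.65 for all genes of that class. The rank correlation of GC content with the log2 ratio was -0.13 against total RNA replicate 1 and -0.65 against replicate 2. The part of GC content in the ratios was not tested.

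**Figure D3:**
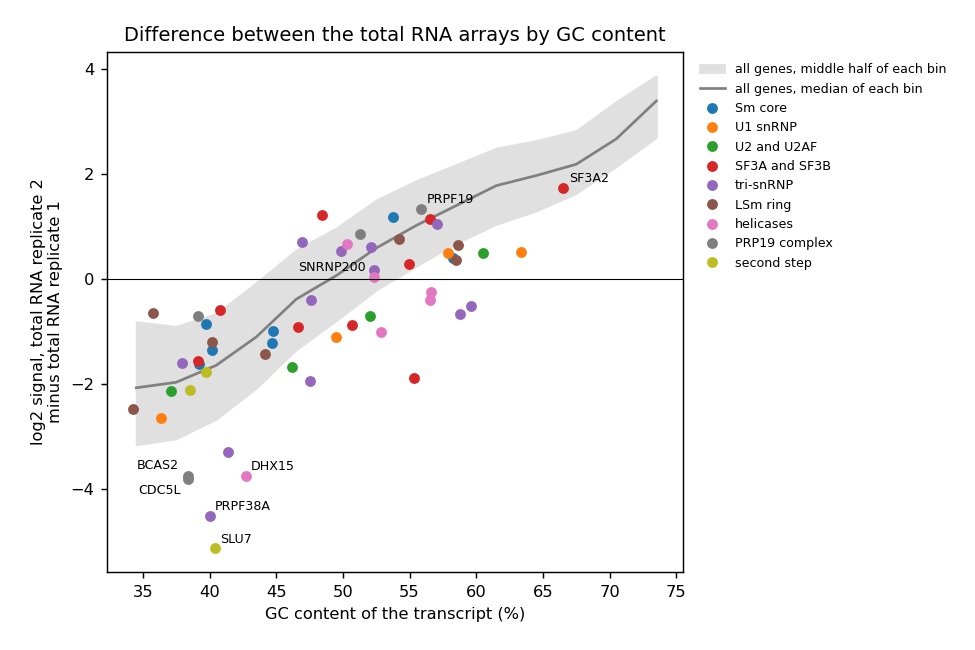
Log2 signal on total RNA replicate 2 minus that on total RNA replicate 1, against the GC content of the transcript in percent, for the 57 genes coloured by class. The grey line and band are the median and interquartile range of all genes in bins of GC content. The difference rises with GC content in these genes as in all genes. SLU7, PRPF38A, CDC5L, BCAS2, DHX15 and PRPF38B lie below the band, and so do several genes of high GC content, among them SF3B4, PRPF31 and SART1. At 52% GC and over, the median is 0.40, against 1.53 for all genes of that class.

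The TIA1 RIP arrays differed less but in a common direction. TIA1 RIP replicate 2 was lower than replicate 1 in 50 of the 57 genes, against 47.7% of all genes, with a median difference of -0.33, compared with 0.035 for all genes. The largest differences, named after the values had been seen, were those of the tri-snRNP protein SART1, with -0.53 on replicate 1 and -1.83 on replicate 2, and of SF3A1, with 0.94 and -0.16. The median of the 57 genes relative to all genes was -0.27 and 0.75 with TIA1 RIP replicate 1 against the total RNA replicates 1 and 2, and -0.61 and 0.29 with TIA1 RIP replicate 2.

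Of the 18 genes with both TIA1 RIP arrays below both total RNA arrays, 9 had a coding sequence over 2 kb. Coding length ran from the short reading frames of the Sm and LSm genes to 6411 nucleotides in SNRNP200 and 7008 in PRPF8, and the classes of length used below were chosen after the values had been seen. Of the 17 genes with a coding sequence over 2 kb (2000 nucleotides), 0 had both TIA1 RIP arrays above both total RNA arrays and 9 (52.9%) had both below, against 9.89% and 28.1% of all genes of that length. Of the 24 genes under 1 kb (1000 nucleotides), 7 had both above and 5 both below (29.2% and 20.8%), against 28% and 19.4% of all such genes. The median log2 ratio relative to all genes was -0.89 in the long class and 0.19 in the short class, compared with -0.20 and 0.13 for all genes of these lengths. All 17 long genes were below the all-gene median against total RNA replicate 1, and 10 of them were below it against replicate 2. Their median was -1.21 against replicate 1 and -0.49 against replicate 2, compared with -0.44 and 0.061 for all genes over 2 kb.

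**Figure D4:**
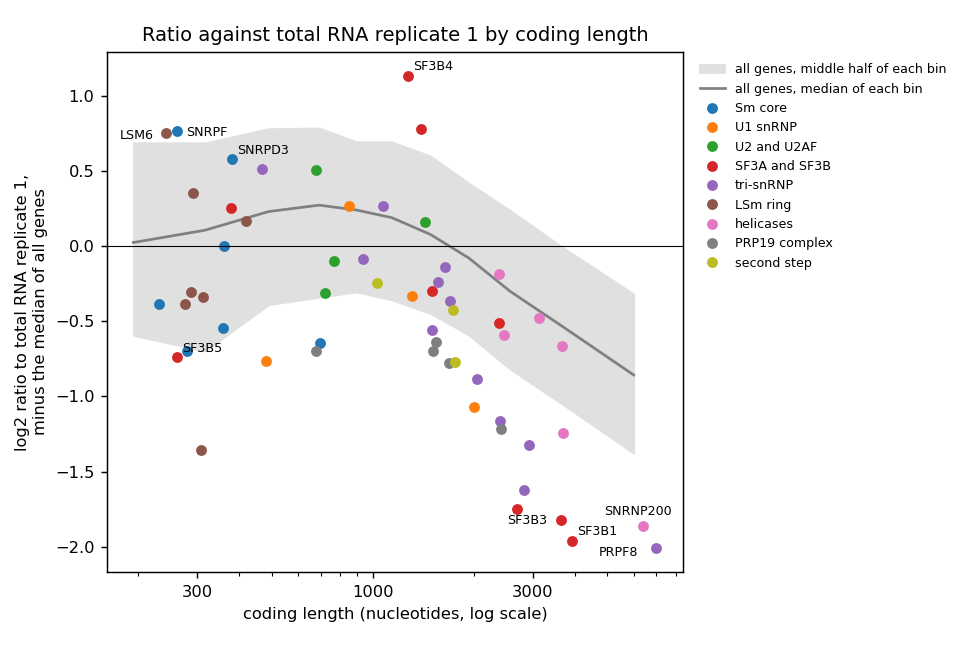
Log2 ratio of the mean of the TIA1 RIP arrays to total RNA replicate 1, minus the median of all genes, against coding length in nucleotides on a log scale, for the 57 genes coloured by class. The grey line and band are the median and interquartile range of all genes in bins of coding length. The line falls with length in all genes, and PRPF8, SNRNP200, SF3B1 and SF3B3 lie at the lower right.

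Across the 57 genes the rank correlation of coding length with the log2 ratio was -0.41 on the group means, -0.57 against total RNA replicate 1 and -0.33 against replicate 2. Across the 11636 genes with a coding transcript it was -0.093, -0.26 and 0.0036. The relation of coding length with the difference between the total RNA arrays was 0.13 in the 57 genes. The long class had a median GC content of 52.1% and the short class one of 44.4%, so length and GC content were not separate among these genes.

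The 3′ UTRs of these mRNAs had a median share of U of 30.8%, compared with 29.4% for all genes. It ranged from 22.0% in SF3A2 to 50.7% in SNRPF, whose 3′ UTR has 69 bases. At least 1 run of 5 U (UUUUU, searched on the transcript strand) was present in 51 of the 57 3′ UTRs (89.5%), against 78.4% of all genes, and the median density was 4.49 runs per kb, compared with 3.14. The U-richest 30-base window held a median of 18 U in both. Across the 57 genes the rank correlation of the share of U with the log2 ratio was 0.57 on the group means, 0.27 against total RNA replicate 1 and 0.59 against replicate 2. Across all genes it was 0.59, 0.074 and 0.65. The share of U also had a rank correlation of -0.58 with the difference between the total RNA arrays in the 57 genes, and its part in the ratios was not tested apart from that of GC content.

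Other genes of the splicing pathway were counted in the same way. Of 56 listed genes of other spliceosome proteins 54 were detected, with a median log2 ratio 0.35 above that of all genes, -0.47 against total RNA replicate 1 and 1.30 against replicate 2. limma called 0 of them at the adjusted threshold. Without adjustment 1 (1.85%) had a limma p-value under 0.05, on the lower side, against 4.02% of all genes. Both TIA1 RIP arrays lay above both total RNA arrays in 12 of them (22.2%) and below in 8 (14.8%), against 19.4% and 21.7% of all genes. The lowest, at -2.59 relative to all genes, was SRRM2, a long serine- and arginine-rich protein of nuclear speckles, and the highest, at 2.18, was HTATSF1, a U2 snRNP cofactor. The 8 proteins specific to the minor spliceosome, which removes the rare U12-type introns, had a median of -0.11, from -1.22 for SNRNP25 to 1.38 for SNRNP48. Of their genes, 1 had both TIA1 RIP arrays above both total RNA arrays and 1 had both below (12.5% each). Of 17 genes for snRNP assembly, in which the SMN complex loads the Sm ring in the cytoplasm, 15 were detected. They had a median of 0.52, from -1.39 for GEMIN4 to 2.14 for GEMIN2, with both TIA1 RIP arrays above in 3 (20%) and below in 2 (13.3%). limma called 0 genes in these 2 lists, also at an unadjusted p-value under 0.05, where 1.1% of all genes were higher and 4.02% lower.

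Among the 16 core genes with more than 1 kept probe, the probes of 5 gave log2 ratios of opposite sign, namely CDC40, PRPF18, SNRNP40, SNRPC and SNRPG. In 3 genes (SF3B3, PRPF18 and CDC40) the probes lay over 1 log2 unit apart, and in 0 genes did they lie over 1 log2 unit from 0 in opposite directions.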

How the data were processed

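Each array was scanned by the authors and processed in Agilent Feature Extraction 10.7.1.1, and the deposited files hold spot intensities on a linear scale (background-subtracted processed signal, median signal and median background) and other columns of spot flags. The deposited files are on GRCh37 and were not normalized between arrays. Flagged spots (299 to 382 of 58717 per array) were left out, the log2 processed signal was set relative to the 75th percentile of the array, and replicate spots were averaged per probe. Detection required a share of at least 0.5 of the spots to be flagged well above background, and probes detected on both TIA1 RIP or both total RNA arrays were kept. Symbols were found for 34510 of 50599 probes through RefSeq and GENCODE identifiers, and the kept probes of a symbol were averaged, giving 13039 genes. Transcript features come from GENCODE on GRCh37 (11636 genes, 89.2%).

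TIA1 RIP and total RNA (2 arrays each) were compared over all genes with the lmFit and eBayes functions of limma 3.58.1 (R 4.3.3, Benjamini-Hochberg adjustment, threshold 0.05). The fit was first run on simulated data, in which every array was given the spread between the TIA1 RIP arrays and the planted changes were large. That run does not cover the wider spread of the total RNA arrays. Enrichment relative to GAPDH was counted at 2.5-fold. Tables and figures were made with Python 3.11.15, pandas 2.3.3, scipy 1.17.1 and matplotlib 3.10.9. The genes, lists and tests were chosen with earlier results of these data known. The genes described in full were the highest and the lowest log2 ratio of each class, with any called gene, any gene not detected and any gene with probes over 1 log2 unit from 0 in opposite directions. Others are given by their log2 ratio alone, except where stated. The alternatives covered the background correction (limma normexp, offset 50, on the median signal, since the mean signal that had been planned was not used here), quantile and E1A spike-in scaling, the detection filter, the choice of probe, the GC trend (lowess, span 0.3), the replicate block, the fold and reference, and each array left out. RIP-seq and IgG immunoprecipitates were not analysed here.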

Additional observations from a re-analysis of the deposited data

How the results depend on the processing

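Total RNA replicate 2 was dim. On it, 9 of the 57 genes were not detected, and ratios against it rest on weak signals for these genes.

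Over all genes, the count called higher by limma was 0 and became 57 with the replicate number as a block, and the count called lower was 0 and became 299. With the block and the GC trend removed, both counts were 0. Same-numbered arrays share only a number in the labels, with a correlation of their deviations of 0.453 in the only contrast that 2 pairs allow, and the block called 0 of the 57 spliceosome genes. With 1 array left out at a time, the counts over all genes ran from 0 to 1849 higher and from 0 to 2051 lower, and those of the spliceosome genes from 0 to 13 higher and from 0 to 4 lower. The upper ends came without total RNA replicate 1. Without TIA1 RIP replicate 1, limma called 7 genes lower.

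The median of the spliceosome genes relative to all genes, 0.036, was 0.56 with no detection filter and ran from -0.42 to 0.52 with 1 array left out. In the Sm ring the median of 0.23 became 0.72 with normexp, 0.79 with quantile normalization, 0.54 with only probes detected on all 4 arrays, 0.68 with no filter and -0.22 with the GC trend removed, with or without the block, and ran from -0.39 to 1.29 with 1 array left out. The median of SF3A and SF3B, 0.015, was -0.28 with only probes detected on all 4 arrays and 0.55 with no filter, and ran from -0.60 to 0.23. That of U1 snRNP, 0.012, was 0.39 with quantile normalization and 0.55 with no filter, and ran from -0.54 to 0.42. That of the LSm ring, 0.051, was 0.56 with normexp and 0.59 with no filter. That of U2 with U2AF ran from 0.034 to 1.35, and that of the helicases, -0.57, from -0.77 to -0.17, with -0.14 under normexp, -0.034 with no filter and -0.088 with the GC trend removed, with or without the block. With the GC trend removed, the median of the second-step factors went from 0.75 to -0.29 and that of the PRP19 complex from -0.18 to -0.80. That of the PRP19 complex was 0.052 with normexp and 0.36 with no filter, and that of the tri-snRNP, -0.049, was 0.12 and 0.49.

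The 42 genes over 2.5-fold above GAPDH on the means (72.4% of all genes) became 21 with quantile normalization (33.7%) and 10 with the median of all genes as the reference (12.7%), and ran from 11 to 49 with 1 array left out (42.3% to 77.5%). The 7 in all pairs (26.2%) became 1 with quantile normalization (4.37%), 0 at 4-fold (6.76%) and 0 with that median as the reference (0.736%), and ran from 7 to 48 (31.1% to 71.8%). The 8 genes with both TIA1 RIP arrays above (19.4%) became 14 with quantile normalization (25.6%) and 53 with spike-in scaling (94.5%). Their count ran from 8 without TIA1 RIP replicate 1 (26.5%) to 29 without total RNA replicate 1 (39.6%). The 18 below (21.7%) became 0 with spike-in scaling (0.56%). This count ran from 18 without TIA1 RIP replicate 2 (31.2%) to 35 without total RNA replicate 2 (35.5%). With 1 array left out, fewer arrays have to be apart. Over all combinations of result and setting, single genes included, 363 moved by less than the spread between arrays or, for counts, by at most 1.5 times, and 106 moved by more. With the GC trend removed, 16 of the 57 genes changed sign relative to all genes. Without total RNA replicate 2, 19 did, of which 5 had been over 1 log2 unit from all genes (PRPF38A, PRPF38B, DHX15, BCAS2 and SLU7). The cause of these shifts was not tested.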
